A study of Mus musculus with 8 samples.

Results

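Cortical glutamatergic neuron-like nuclei were 693 of the 8671 cortical nuclei that held 5000 or more counts, 309 of 3870 in CTX replicate 1 and 384 of 4801 in CTX replicate 2. The whole series held 39253 nuclei. The nuclei were chosen by a score taken from their own accessibility. For each nucleus the counts in peaks over the body or the 2 kb upstream were summed for 6 neuronal genes (Slc17a6, Neurod2, Neurod6, Tbr1, Eomes and Nhlh1) and for 6 progenitor genes (Hes1, Hes5, Sox2, Notch1, Nes and Vim). The score was the neuronal sum plus 1, divided by both sums plus 2, and the top 8% of each library was kept. These nuclei are called neuron-like nuclei here, and the remaining nuclei of the same library that held 5000 or more counts are called other nuclei.

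Excitatory projection neurons of the cerebral cortex arise from radial glia of the dorsal ventricular zone, either directly or through intermediate progenitors that express Eomes. Proneural factors of the basic helix-loop-helix family, such as Neurog2, start the programme, and relatives such as Neurod2 and Neurod6 follow in postmitotic cells, together with the T-box factor Tbr1 of early-born deep-layer neurons. Single-nucleus ATAC-seq counts transposase insertions, so that a high count over a gene reports open chromatin and not its RNA.

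The study profiled nuclei from dounced tissue of the wild-type (WT) mouse embryonic forebrain with a droplet kit. It held 2 samples each of the cortex (CTX) and of the medial, lateral and caudal ganglionic eminences (MGE, LGE and CGE, together GE). All samples are labelled E12.5, by embryonic day, except CTX replicate 2, which is labelled E14.5, so that age and library cannot be told apart within CTX. No manipulation was applied to any group, and how many embryos made up a sample is not stated. Libraries held 77387940 to 138873845 counts in peaks. The libraries of CTX shared 36 barcodes, within the range of 15 to 56 for all pairs of libraries.

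The cortical libraries stood apart from each other in the score that chose the nuclei, which is a description and no check of the labels. Cortical neurons accumulate as development proceeds, and the order of the scores was the reverse of the labelled ages. A score above 0.5 was found in 1772 nuclei (45.8%) of the library labelled E12.5 and in 419 nuclei (8.73%) of that labelled E14.5. The median score of all nuclei was 0.5 in the former and 0.188 in the latter. The same top 8% therefore reached down to a score of 0.812 in CTX replicate 1 and to 0.542 in CTX replicate 2. Peaks were called separately in each library, and those over the 6 neuronal genes spanned 76.2 kb in CTX replicate 1 and 46.3 kb in CTX replicate 2, against 82.6 and 82.5 kb over the progenitor genes. The part of this length in the difference of scores was not tested. The libraries are described apart throughout.

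**Figure D1:**
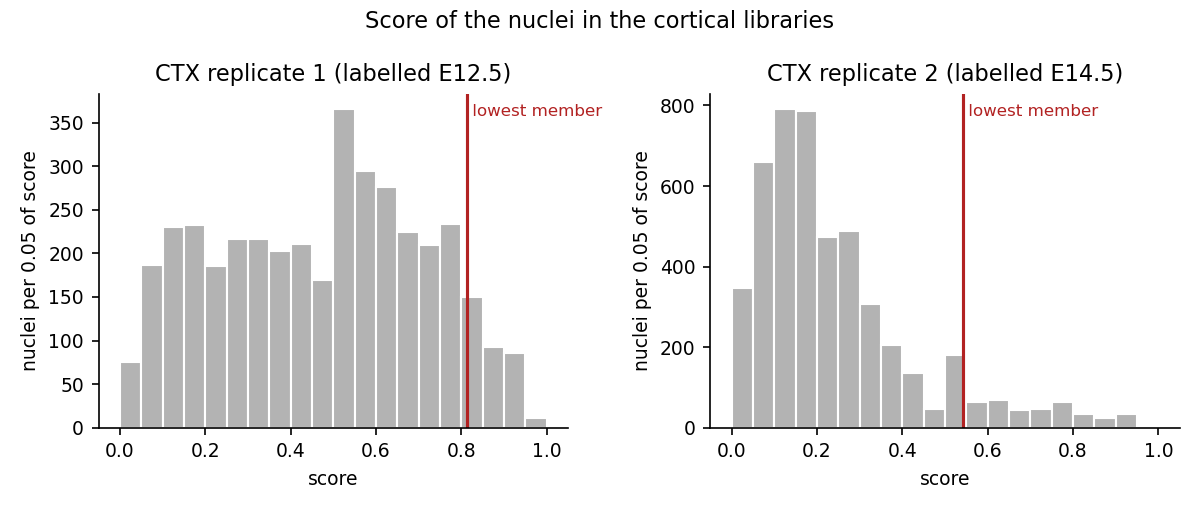
Number of nuclei per 0.05 of score (y axis) against the score (x axis) in the 2 cortical libraries, with the lowest score among the neuron-like nuclei as a red line. In CTX replicate 1 the line at 0.812 lies in a broad upper shoulder, and in CTX replicate 2 the line at 0.542 lies at the start of a thin upper tail.

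The genes that chose the nuclei are given as a description, with no test, as CPM relative to all counts in peaks of the same nuclei. Neurod2, a factor of postmitotic excitatory neurons, stood at 236 CPM in neuron-like nuclei and 121 in other nuclei of CTX replicate 1, and at 80.9 against 10.4 in CTX replicate 2. Its relative Neurod6 stood at 197 against 96.7 and at 103 against 32.4. Slc17a6, the vesicular glutamate transporter VGLUT2, stood at 169 against 101 and at 281 against 54.4. Each of these genes was higher in the neuron-like nuclei of both libraries, and their sum entered the score. Tbr1 stood at 214 against 113 and at 182 against 64.6. The intermediate progenitor factor Eomes stood at 110 against 85.2 and at 148 against 54.2, and Nhlh1, a helix-loop-helix factor of newborn neurons, at 84.6 against 54.9 and at 127 against 15.2.

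The progenitor side of the score separated the nuclei more sharply in CTX replicate 1. The 6 progenitor genes together held 117 CPM in neuron-like nuclei and 822 in other nuclei there, and 343 against 1174 in CTX replicate 2. The 6 neuronal genes held 1010 against 572 CPM and 921 against 231 CPM. No count over any progenitor gene was found in 128 neuron-like nuclei (41.4%) of CTX replicate 1 and in 65 (16.9%) of CTX replicate 2, against 0.899% and 0.453% of other nuclei. A count over all 6 neuronal genes was found in 41 and 11 neuron-like nuclei. The median neuron-like nucleus held 14 counts over neuronal and 2 over progenitor genes in CTX replicate 1, and 10 and 4 in CTX replicate 2.

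Depth moved with the choice. The median was 17368 counts in neuron-like nuclei and 24503 in other nuclei of CTX replicate 1, and 12168.5 against 16375 in CTX replicate 2. When each nucleus was thinned to 5000 counts before scoring, 54.7% and 69.5% of the neuron-like nuclei were chosen again. At the cut, 24 nuclei with the score of 0.812 fell inside and 1 outside in CTX replicate 1, and 2 inside and 8 outside at 0.542 in CTX replicate 2. The share of counts in promoter peaks was 40.0% against 41.2% and 46.3% against 48.9% in other nuclei.

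The counts of the score also set the ranking, so levels along it are a description. The level of the neuronal genes changed little among the neuron-like nuclei of CTX replicate 1. In CTX replicate 2 it went down among the neuron-like nuclei and further below the cut. In CTX replicate 1 it was 979 CPM in the top 2%, 950 between 2 and 4%, 1047 between 4 and 8% and 831 between 16 and 32%. In CTX replicate 2 it was 1076, 952, 840.0 and 398 CPM in the same bands. Progenitor genes went from 24.4 to 400.1 CPM and from 89.0 to 964 CPM from the first to the last of these bands. In CTX replicate 1 the nuclei just below the cut, ranked between 8 and 16%, still held 911 CPM over the neuronal genes, so the other nuclei of that library include many with a like level.

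All remaining values leave out the 12 genes and every peak of the score, and are CPM of counts assigned to protein-coding genes. A ratio is the CPM of neuron-like nuclei to that of other nuclei, with 1 CPM added to each, on the log2 scale. Each library is 1 sample, so these ratios carry no test, and a gene is counted as 2-fold higher or lower by size alone. In CTX replicate 1, 28 of 15726 measured genes were 2-fold or more higher (0.178%) and 170 lower (1.08%). In CTX replicate 2, 298 of 15224 were higher (1.96%) and 269 lower (1.77%). Against the nuclei ranked below the median alone, the counts were 187 (1.19%) and 389 (2.47%) in CTX replicate 1 and 388 (2.55%) and 304 (2%) in CTX replicate 2. Across the 15090 genes measured in both libraries, which are not independent, the ratios correlated with a Pearson r of 0.443, and 1 gene was 2-fold higher in both (0.00663%) and 53 lower in both (0.351%). Against the nuclei ranked below the median, 25 genes were higher in both (0.166%) and 114 lower (0.755%).

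Counts over genes that most neurons use were higher in neuron-like than in other nuclei, for nearly all members of the list in both libraries. Of 18 pan-neuronal genes 16 had a ratio above 0 in CTX replicate 1 and 18 in CTX replicate 2, with medians of 0.29 and 0.70 beside 0.01 and -0.02 over all genes, and none and 6 of them were 2-fold higher. Ina, a neuronal intermediate filament, stood at 64.1 CPM (95% counting interval 57.3 to 71.5) in neuron-like nuclei and 41.4 in other nuclei of CTX replicate 1. In CTX replicate 2 it stood at 89.0 CPM (80.1 to 98.6) against 18.8, so that its ratio was 0.62 in the former and 2.19 in the latter. Ina shares peaks with Nt5c2. Stmn2, a regulator of microtubules in growing axons, stood at 67.9 against 43.2 CPM and at 70.7 against 19.7 CPM. The RNA-binding protein gene Elavl3, which overlaps Gm49318, had ratios of 0.47 and 1.35, and the axonal adhesion molecule Cntn2 of 0.57 and 1.34. Dcx, the microtubule protein of migrating neurons, had ratios of 0.01 and 1.65.

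Most genes of glutamate transmission were likewise higher in neuron-like nuclei. Of 10 genes 8 had a ratio above 0 in each library, with medians of 0.31 and 0.54, and 2 were 2-fold higher in CTX replicate 2. Gria1, an AMPA receptor subunit, stood at 119 against 68.8 CPM in CTX replicate 1 and at 72.9 against 28.6 CPM in CTX replicate 2. Slc17a7, the vesicular glutamate transporter VGLUT1, stood at 133 against 92.4 CPM and at 119.5 against 56.2 CPM. The neuron-like nuclei were higher than other nuclei for both genes in both libraries. The metabotropic receptor gene Grm5 had ratios of 0.59 and 0.77, while the kinase gene Camk2a had ratios of -0.41 and -0.51.

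Genes of neurogenesis differed between the libraries. Of 12 genes of the neurogenic and intermediate progenitor list 4 had a ratio above 0 in CTX replicate 1 and 11 in CTX replicate 2, with medians of -0.21 and 0.64. Nhlh2, a helix-loop-helix factor like Nhlh1, stood at 43.1 CPM (37.5 to 49.2) against 38.8 in CTX replicate 1 and at 100.5 CPM (91.0 to 111) against 23.0 in CTX replicate 2. Neurod1, which acts between the proneural factors and Neurod2 and overlaps Cerkl, stood at 125 against 97.3 CPM and at 196 against 68.3 CPM. Both were thus higher in neuron-like nuclei of CTX replicate 2, while in CTX replicate 1 the counting interval of Nhlh2 held the value of other nuclei. The proneural gene Neurog2 was lower in neuron-like nuclei of both libraries, at 68.1 against 111.4 CPM and at 105.6 against 157 CPM. Neurog1 stood at 8.93 against 27.7 CPM in CTX replicate 1 and at 47.1 against 37.2 CPM in CTX replicate 2, where its log2 ratio of 0.33 turned to -0.10 with the top 4% of nuclei. The Notch ligand gene Dll3 had ratios of 0.03 and 1.08.

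The same split between libraries was seen for Cajal-Retzius cells, the early reelin-secreting neurons of the marginal zone. Of 8 genes 4 had a ratio above 0 in CTX replicate 1, with a median of -0.04, and 8 in CTX replicate 2, with a median of 0.99 and 3 of them 2-fold higher. Against the nuclei ranked below the median, the list medians were 0.08 and 1.08. Ebf2 stood at 202 CPM (189 to 214) against 216 in CTX replicate 1 and at 519.5 CPM (498 to 542) against 190.2 in CTX replicate 2. Trp73, a p53 relative of these cells that shares peaks with Wrap73, stood at 77.6 against 76.2 CPM and at 157 against 69.9 CPM. Reln itself stood at 308 against 252 CPM and at 244 against 122 CPM. Summed over the list, the neuron-like nuclei held 1119 CPM against 1061 in CTX replicate 1 and 1945 against 929 in CTX replicate 2. Lhx9, of the hem and thalamic list, had ratios of -0.22 and 0.86, while 7 and 8 of the 10 genes of that list were below 0, with medians of -0.16 and -0.31. The name glutamatergic neuron-like rests on genes of the score, and the part of Cajal-Retzius cells in the nuclei of CTX replicate 2 was not tested.

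Genes that tell cortical layers apart had ratios of both signs. Of 10 deep-layer genes 5 had a ratio above 0 in CTX replicate 1 and 4 in CTX replicate 2, with medians of -0.04 and -0.26. Fezf2, a factor of subcerebral projection neurons that radial glia also express, stood at 189 against 255 CPM and at 220.0 against 393 CPM, and was lower in neuron-like nuclei of both libraries. The LIM-only gene Lmo3 had ratios of -0.22 and -1.18, and the nuclear receptor gene Nr4a2 of -0.47 and -0.79. Zfpm2, a cofactor of GATA factors found in early corticothalamic neurons, went the other way, at 298 against 229.7 CPM and at 289.5 against 146 CPM. Of 10 upper-layer genes 6 and 8 were above 0, with medians of 0.08 and 0.18. The homeobox gene Cux2 had ratios of 0.12 and 0.46. Of 10 axon guidance genes 5 and 7 were above 0, with medians of 0.01 and 0.33, and the semaphorin receptor gene Plxna4 had ratios of 0.25 and 1.15.

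Progenitor genes outside the score were lower in the neuron-like nuclei of both libraries. Of 16 such genes 15 had a ratio below 0 in CTX replicate 1 and 16 in CTX replicate 2, with medians of -0.64 and -0.72, and none and 6 were 2-fold lower. Sox1 stood at 56.6 CPM (50.2 to 63.5) against 112 in CTX replicate 1 and at 58.5 CPM (51.4 to 66.4) against 159 in CTX replicate 2. Its relative Sox3 stood at 33.0 against 59.6 CPM and at 41.0 against 117 CPM. Both are SoxB1 factors that maintain neural progenitors. Nr2e1, a nuclear receptor of neural stem cells that shares peaks with Ostm1, had ratios of -0.84 and -1.18, and the RNA-binding protein gene Zfp36l1 of -0.90 and -1.19. Pax6, the dorsal progenitor factor, had ratios of -0.75 and -0.72. Ptprz1 had a ratio of 0.34 in CTX replicate 1 and -0.60 in CTX replicate 2. Of 8 cell cycle genes 6 and 7 were below 0, with medians of -0.10 and -0.20, and the helicase gene Mcm3 had ratios of -0.83 and -0.60.

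Of the cell types the tissue could also hold, GABAergic markers were mostly below the level of other nuclei, and endothelial markers had ratios of both signs. Of 15 GABAergic genes 9 had a ratio below 0 in CTX replicate 1 and 13 in CTX replicate 2, with medians of -0.12 and -0.21. The zinc finger gene Sp8 had ratios of -0.73 and -0.60. Gsx2, a homeobox gene of ventral progenitors, was the other way in both libraries at a low level, 9.93 against 7.40 CPM and 14.6 against 11.0 CPM. In CTX replicate 1 the counting interval of Gsx2 held the value of other nuclei. Slc32a1, the vesicular GABA transporter, was above 0 in both libraries as well, with ratios of 0.17 and 0.54. Of 7 measured endothelial genes 4 and 5 were above 0, with medians of 0.11 and 0.41 beside 0.01 and -0.02 over all genes. With the top 4% of nuclei, Flt1 turned from 0.11 to -0.08 in CTX replicate 1 and Cdh5 from -0.14 to 0.24 in CTX replicate 2. Summed over the list, endothelial genes held 312 against 274 CPM and 295 against 203 CPM, and the part of these values in the other results was not tested. Of the microglial, mural or mesenchymal, and erythroid lists 5, 6 and 3 genes were measured in CTX replicate 1 and 4, 5 and 3 in CTX replicate 2. Their medians were -0.02, -0.27 and 0.05 in CTX replicate 1 and -0.07, -0.05 and -0.12 in CTX replicate 2.

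**Figure D2:**
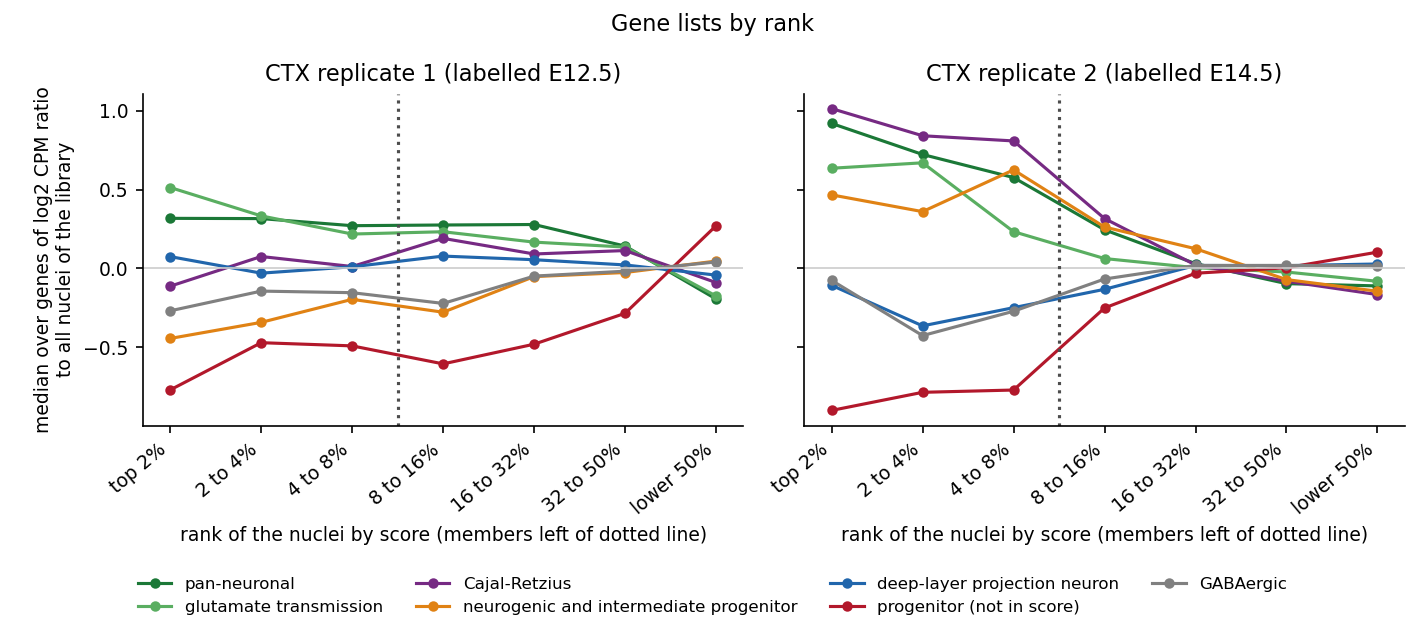
Median log2 ratio of each gene list to all nuclei of the library (y axis, 1 line per list) in 7 bands of rank by score (x axis, members of the top 8% left of the dotted line), for the 2 cortical libraries. The pan-neuronal list went from 0.32 in the top 2% to -0.19 below the median rank in CTX replicate 1 and from 0.92 to -0.11 in CTX replicate 2, and the Cajal-Retzius list reached 1.01 in the top 2% of CTX replicate 2 and -0.11 in that of CTX replicate 1.

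**Figure D3:**
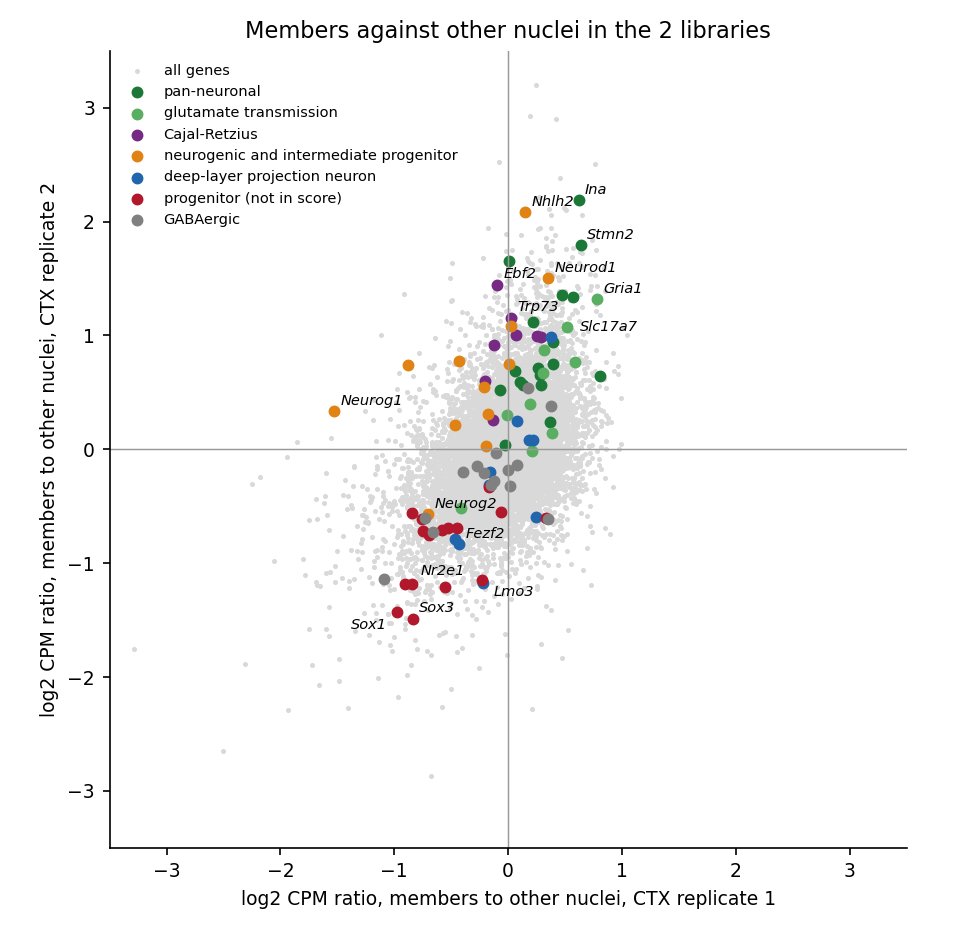
Log2 CPM ratio of neuron-like to other nuclei in CTX replicate 1 (x axis) and CTX replicate 2 (y axis), 1 point per gene, with listed genes coloured by list. Most pan-neuronal and glutamate transmission genes lie to the upper right and most progenitor genes to the lower left, with Camk2a at -0.41 and -0.51 and Ptprz1 at 0.34 and -0.60 as exceptions. The 8 Cajal-Retzius genes lie above 0 on the y axis, as do 11 of 12 neurogenic genes, with Neurog2 below it at -0.57 and Neurog1 far to the left at -1.53.

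Outside the lists, the genes with the largest ratio in both libraries were of mixed function. Il34, a cytokine that signals through the receptor Csf1r, was the gene 2-fold higher in both, at 34.7 against 16.3 CPM and at 16.3 against 7.65 CPM. Oacyl had ratios of 1.00 and 1.07, Thy1, a surface glycoprotein of neurons, of 0.85 and 1.39, and Gm765 of 0.85 and 1.59. Slc6a13, a transporter of GABA, had ratios of 0.92 and 0.84, and Tnfrsf8 of 0.81 and 1.18. Cytip had ratios of 0.77 and 1.21. Ipcef1, with 0.78 and 1.43, shares peaks with Oprm1, Rsph10b, with 0.78 and 0.87, with Pms2 and Gm42421, and Islr, with 0.77 and 1.75, with Islr2, so these values cannot be given to a single gene. At the lower end Mlc1 stood at 3.97 against 47.4 CPM and at 18.05 against 63.3 CPM, with peaks shared with Ttll8 and Mov10l1. Rcn1, a calcium-binding protein of the endoplasmic reticulum, had ratios of -1.72 and -1.89. Gm5136, which lies over Syt1, had ratios of -2.50 and -2.65, Aif1l, which shares peaks with Nup214, of -1.94 and -2.29, and 1810010D01Rik, which shares peaks with Tpcn2, of -2.31 and -1.88.

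The ratios that differed most between the libraries were sought among genes of no list, and listed genes were not ranked with them. Krtap16-1 stood at 18.1 against 15.1 CPM in CTX replicate 1 and at 50.2 against 4.57 CPM in CTX replicate 2. The differences of log2 ratios, CTX replicate 2 minus CTX replicate 1, were 2.95 for Krtap16-1, 2.74 for 1700012A03Rik, 2.61 for Atp8b4, 2.48 for Angptl7, which shares peaks with Mtor, 2.27 for Ccdc80 and 2.13 for Cdcp2. In the other direction they were -2.49 for Anks4b, -2.31 for Tacr3, the neurokinin receptor, -2.19 for the helix-loop-helix gene Helt, -2.11 for Zfp366, -2.002 for Tmem71 and -1.92 for Kynu. With 1 library per age these differences have no replicate check.

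Transcription factor motifs were a readout that the score did not use, although the deposited motif counts include the peaks of the score. Motifs of helix-loop-helix factors were among the highest of the 579 motifs in both libraries. The BHLHE22 motif had a log2 ratio of 0.25 in CTX replicate 1 and 0.36 in CTX replicate 2, OLIG1 and OLIG2 of 0.25 and 0.30, and OLIG3 of 0.25 and 0.30. NEUROD2 had ratios of 0.24 and 0.39, at 496 against 421 and at 429 against 329 CPM of motif counts. Across all motifs the middle of the distribution, from the 5th to the 95th percentile, lay between -0.09 and 0.09 and between -0.14 and 0.14, so these are small values at the edge of the range. Neurog1 had ratios of 0.23 and 0.38, NEUROG2 of 0.15 and 0.21, and NEUROD1 of 0.12 and 0.43, the highest in CTX replicate 2. These motifs resemble each other, so the counts cannot be given to a factor. The T-box motifs TBX21, EOMES and TBR1 had ratios of 0.09 and 0.15, 0.00 and 0.17, and -0.00 and 0.02. The Pax6 motif had the lowest ratio in both libraries, -0.27 and -0.35, followed in CTX replicate 1 by Pou5f1::Sox2 with -0.24 and -0.27. SMAD3 had ratios of -0.17 and -0.18, NFE2 of -0.15 and -0.22 and PROX1 of -0.15 and -0.30. EMX1 had ratios of -0.10 and -0.08.

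**Figure D4:**
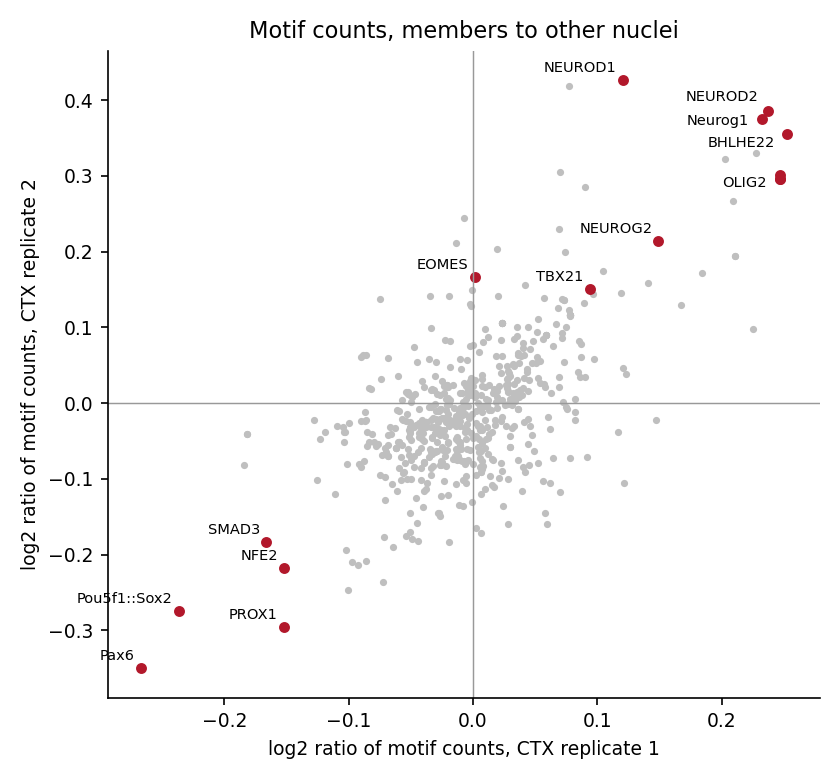
Log2 ratio of motif counts, neuron-like to other nuclei, in CTX replicate 1 (x axis) and CTX replicate 2 (y axis), 1 point per motif, with named motifs in red. Helix-loop-helix motifs lie at the upper right, with NEUROD2 at 0.24 and 0.39, and Pax6 at the lower left, at -0.27 and -0.35.

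Single regions of open chromatin were compared where both cortical libraries had a peak, over 100 kb from any gene of the score. Of 75876 such regions with 100 or more counts in each library, 147 were 2-fold or more higher in the neuron-like nuclei of both (0.194%) and 3703 lower in both (4.88%). Against the nuclei ranked below the median alone, 1422 were higher in both (1.87%) and 5194 lower (6.85%). Within a library 406 were higher and 7883 lower in CTX replicate 1, and 9446 higher and 9248 lower in CTX replicate 2. A gene was overlapped by 70 of the 147 higher regions (47.6%), by 46.5% of the lower and by 60.4% of all these regions. Counts per region are few in the neuron-like nuclei, and no region was tested.

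The central 200 bases of the stretch that the peaks of both libraries share in a region were searched on both strands for short words. CAGATG, the E-box that Neurod and Neurog factors prefer, was found in 29.9% of the 147 higher regions, in 16.3% of all 75876 regions and in 11.2% of the 3703 lower regions. CATATG, a further E-box of these factors, was found in 8.16%, 3.38% and 2.86%, and CAGCTG in 21.8%, 14.55% and 9.88%. The 3 words have the common form CANNTG and are counted separately. ACAATG, a core of Sox sites, was found in 10.2% of higher, 10.2% of all and 16.8% of lower regions, and the homeodomain word TAATTA in 15.6%, 9.68% and 17.1%. The NFI word TTGGCA was found in 20.4%, 14.1% and 19.2%, the POU word TTTGCAT in 4.76%, 4.26% and 7.35%, and the RFX word TTGCCAT in 8.16%, 3.13% and 3.00%. The mean GC content was 48.2% in higher, 51.1% in all and 45.3% in lower regions. It was thus below that of all regions in both sets, while the 3 E-box words were more frequent in higher and less frequent in lower regions. The part of base composition in the words was not tested. A word is a description of the sequence and not a bound site.

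Regions were ranked by the smaller of their ratios in the 2 libraries. The first, chr15:61888386-61889424 (GRCm38), lies between genes, 96.5 kb from the nearest start, that of Myc. It held 18.3 CPM (15.1 to 21.9) in neuron-like nuclei and 5.46 in other nuclei of CTX replicate 1, and 10.2 CPM (7.56 to 13.4) against 1.27 in CTX replicate 2. A region in an intron of Arid1a, chr4:133700691-133701693, held 15.6 against 5.10 CPM and 12.8 against 1.39 CPM. A region between genes at chr9:15886573-15887570, 12515 bases from the start of Mtnr1b, held 13.1 against 4.31 CPM and 7.54 against 1.64 CPM. Their neuron-like values lay above those of other nuclei in both libraries, which is how they were selected. Next in rank were a region in an intron of Rnf165, with log2 ratios of 1.39 and 1.64, chr1:170158007-170160802 over an exon of Uap1, with 1.37 and 2.23, and chr11:6889175-6890278, between genes and 52.1 kb from the start of Gm11983, with 1.35 and 2.50.

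The centres of the stretch shared by both peaks are given for the first 3 of these regions and for the chr11 region, from the plus strand of the GRCm38 assembly of RefSeq. The chr11 region holds the most of the words marked among the regions searched, which leave out the Rnf165 region. Capitals mark CAGATG on either strand, CATATG and CAGCTG. The chr15 and chr9 regions hold none of these words in these 300 bases, nor does the chr1 region in the 202 bases that its peaks share, while the chr4 region holds 1 CAGCTG and the chr11 region 2 CATATG.
chr15:61888794-61889093: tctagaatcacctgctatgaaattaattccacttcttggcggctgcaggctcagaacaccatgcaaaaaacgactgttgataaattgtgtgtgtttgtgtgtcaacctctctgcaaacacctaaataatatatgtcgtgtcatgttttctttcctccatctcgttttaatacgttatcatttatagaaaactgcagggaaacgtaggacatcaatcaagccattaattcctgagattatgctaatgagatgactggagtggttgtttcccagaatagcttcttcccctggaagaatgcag
chr4:133701016-133701315: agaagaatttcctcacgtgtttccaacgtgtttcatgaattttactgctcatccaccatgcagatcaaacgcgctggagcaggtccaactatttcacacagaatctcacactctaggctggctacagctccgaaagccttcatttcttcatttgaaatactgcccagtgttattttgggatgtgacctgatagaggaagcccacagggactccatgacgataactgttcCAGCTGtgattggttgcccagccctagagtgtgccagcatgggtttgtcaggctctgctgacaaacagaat
chr9:15886903-15887202: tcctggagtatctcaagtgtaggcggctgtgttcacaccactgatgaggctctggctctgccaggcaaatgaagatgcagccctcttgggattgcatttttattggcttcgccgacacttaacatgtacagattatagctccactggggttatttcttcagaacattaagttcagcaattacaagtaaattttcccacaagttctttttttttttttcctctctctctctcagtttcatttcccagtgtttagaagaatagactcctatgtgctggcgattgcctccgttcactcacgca
chr11:6889597-6889896: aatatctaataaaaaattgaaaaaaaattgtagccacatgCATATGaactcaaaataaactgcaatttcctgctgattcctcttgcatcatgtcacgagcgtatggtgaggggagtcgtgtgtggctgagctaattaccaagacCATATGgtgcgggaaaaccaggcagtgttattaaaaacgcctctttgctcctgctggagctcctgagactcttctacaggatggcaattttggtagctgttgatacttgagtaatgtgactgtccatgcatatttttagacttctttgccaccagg

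Whether the neuron-like nuclei of the cortex differ from nuclei of the ventral forebrain picked the same way was tested over samples. The CTX group joins a library labelled E12.5 and one labelled E14.5, while all GE samples are labelled E12.5. Age is therefore part of every comparison of CTX with GE. The 6 GE samples were ranked by the same score, their top 8% taken, and counts summed per sample. These GE nuclei held 151 to 285 CPM over Slc17a6 and 152 to 229 CPM over Tbr1, ranges that include or lie near the cortical values, but 2.39 to 46.7 CPM over Neurod6. The score reached down to between 0.375 and 0.667 in GE, and the 6 neuronal genes held 464 to 747 CPM and the progenitor genes 154 to 472 CPM in these GE nuclei, so the nuclei compared also differ in the values that chose them. In MGE replicate 1 the progenitor genes held more than the neuronal ones, 472 against 464 CPM. These values belong to the score and are a description.

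In edgeR's quasi-likelihood test with Benjamini-Hochberg adjustment, 774 of 16462 genes were called, 679 higher in CTX (4.12%) and 95 lower (0.577%). The unadjusted p was under 0.05 for 3013 genes. Among the called genes 674 had CTX values that did not overlap those of GE, and so had 19.7% of all genes tested. The length called as peak moved with these calls. It was longer in CTX for 675 of the 679 higher genes and shorter for 91 of the 95 lower ones, beside 72.3% and 27.6% of all genes tested. An offset for that length could be fitted for 696 of the 774, and 78 had no peak in some library and were left out. With the offset 3 genes were called, none of them higher, and 574 of the 696 kept their direction. With peaks at start sites alone 233 genes were called, 179 higher. Without CTX replicate 1 the count was 362 and without CTX replicate 2 it was 1566. It was 361 without MGE replicate 1, 386 and 282 without LGE replicates 1 and 2, and 451 and 255 without CGE replicates 1 and 2.

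Genes of the GABAergic programme were lower in the cortical nuclei, the one list with most of its members called. Of its 15 genes 10 were lower (0.577% over all genes), with a list median of -1.16 beside -0.00 over all genes. Gad2, the glutamate decarboxylase of synaptic terminals, stood at 28.6 and 39.0 CPM in CTX and at 85.7 to 219 CPM in GE, differing by -1.73 on the log2 scale (SE 0.20, adjusted p = 0.0040 by edgeR). Slc32a1, the vesicular GABA transporter, stood at 29.98 and 27.3 CPM in CTX and at 55.4 to 218 CPM in GE, differing by -1.82 on the log2 scale (SE 0.25, adjusted p = 0.0069 by edgeR). No CTX value of either gene reached the GE range. Dlx1 and Dlx2, neighbouring homeobox genes whose peaks are largely shared, had folds of -2.13 and -1.80, and Dlx5 and Dlx6, which share peaks as well, of -2.04 and -1.86, so that the members of either pair are not separate. Gad1 had a fold of -1.04, Lhx6 of -1.06, Sp9 of -0.85 and Nkx2-1 of -1.80. The covered length moved with these genes too, from 8.20 and 9.56 kb in CTX to 12.8 to 25.02 kb in GE for Gad2, and none of these 10 genes was called with the offset for that length. When top-ranked nuclei were set against other nuclei of their own library, the difference between CTX and GE turned in sign for 6 of the 10. It turned to 0.79 for Dlx1, 0.60 for Dlx2, 0.33 for Sp9, 0.21 for Nkx2-1, 0.13 for Slc32a1 and 0.026 for Dlx5, and none of these was called. GE was taken as 1 group there, although the ratio of Dlx1 was -0.07 in MGE replicate 1 and -1.41 in CGE replicate 2.

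Fewer genes of the excitatory lists were called, all of them higher in CTX. They were 1 of 12 neurogenic, 3 of 10 deep-layer, 3 of 10 upper-layer, 2 of 10 glutamate transmission and 3 of 10 axon guidance genes, and no pan-neuronal or Cajal-Retzius gene, beside 4.12% over all genes. None of these was called with the offset for covered length, and in within-library ratios the fold of Fezf2 turned to -0.085. Fezf2 stood at 189 and 220.0 CPM in CTX and at 72.9 to 127 CPM in GE, differing by 1.15 on the log2 scale (SE 0.19, adjusted p = 0.011 by edgeR), with 14.7 kb covered in CTX and 12.2 to 14.6 kb in GE. Slc17a7 stood at 133 and 119.5 CPM in CTX and at 33.2 to 67.1 CPM in GE, differing by 1.48 on the log2 scale (SE 0.20, adjusted p = 0.0065 by edgeR). Neither gene overlapped between the groups. Zfpm2 had a fold of 1.47, Crym of 1.45, Bhlhe22 of 0.97, Zbtb18 of 0.76, Neurod1 of 0.82, Grik2 of 0.78, Robo2 of 0.87, Plxna4 of 1.07 and Epha4 of 0.80. Of the remaining lists, 2 of 16 progenitor, 2 of 10 hem and thalamic, 2 of 7 endothelial and 1 of 7 mural or mesenchymal genes were called higher. The progenitor genes Emx2 and Gli3 had folds of 0.90 and 0.92, and Wnt8b and Rora of the hem and thalamic list 2.40 and 0.76. The endothelial genes Flt1 and Cdh5 had folds of 1.06 and 2.12, and the mural gene Tbx18 of 0.78. Of these, Emx2, Rora and Cdh5 turned to -0.28, -0.20 and -0.010 in within-library ratios, and Gli3 to -0.011 with the offset.

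Most genes with the largest folds lay outside the lists. The 10 largest higher in CTX (Mia, Bbox1, Acot10, Gm1113, Krt12, Mbd3l2, Fam50b, Tmem173, Bhmt and Vmn1r218) had little or no peak called in GE samples and are given no fold. At the lower end Gast, the gastrin gene, stood at 3.57 and 4.39 CPM in CTX and at 28.1 to 89.2 CPM in GE, a fold of -3.66, and was called with the offset as well (edgeR adjusted p = 0.022). Dlk1, a Notch pathway modulator, had a fold of -2.15. The tachykinin gene Tac2 had a fold of -2.25 and Gigyf1 of -2.95, which turned to 1.11 and 0.40 with peaks at start sites alone. Resp18, Ccdc188, Cntnap3 and Metap1d completed the 10 lowest together with Dlx1 and Dlx5, and in within-library ratios the fold of Metap1d turned from -1.96 to 0.63. No motif of 579 was called (0%), with 117 at an unadjusted p under 0.05 and a smallest edgeR adjusted p of 0.117, and DESeq2 called 98. The Neurog1 motif had a fold of 0.83 and NEUROD2 of 0.67 in CTX against GE.

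The ratio of top-ranked to other nuclei within a library divides out the length called, since both sides use the same peaks. It does not divide out which stretches of a gene were called. The ratios of different libraries can rest on different stretches, and the part of this was not tested. Whether this ratio differed between CTX and GE was tested with edgeR on both kinds of nuclei, with the library as a block. Of 17644 genes 62 were called, 26 with a higher ratio in CTX (0.147%) and 36 with a lower one (0.204%), and 1932 had an unadjusted p under 0.05. All 62 had CTX ratios that did not overlap those of GE, and so had 11.8% of all genes tested. Of the 62 genes 12 were among the 774, which were called out of 16462. This overlap takes no account of direction, which differed between the tests for Emx1, Cckar and Clnk. A ratio holds the level in other nuclei of its library as well, which in GE come from ventral tissue. Most of the 62 genes were not called without CTX replicate 2, which leaves CTX with the library labelled E12.5 alone. Most stayed called without CTX replicate 1, which leaves the library labelled E14.5 alone. The count was 33 and 29 without MGE replicates 1 and 2, 22 without CGE replicate 2 and 23 without LGE replicate 2.

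Of the listed genes 4 were called, beside 0.147% higher and 0.204% lower over all genes. They were 2 of 12 neurogenic genes, which went opposite ways, 1 of 10 upper-layer and 1 of 15 GABAergic genes. No gene of the remaining lists was called. Neurog2 had log2 ratios of -0.70 and -0.57 in CTX and of 0.04 to 0.46 in GE, a difference of -0.81 ± 0.13 (edgeR adjusted p = 0.017, and 0.068 with each nucleus thinned to 5000 counts, where the call was lost). The ratios of CTX lay below 0 and those of GE near or above it, and the test covers their difference alone. The Notch ligand gene Dll1 had ratios of 0.01 and 0.75 in CTX and of -0.91 to -0.34 in GE, a difference of 1.03 ± 0.19 (edgeR adjusted p = 0.042). Unc5d, a netrin receptor gene of the upper-layer list, had ratios of 0.05 and -0.24 in CTX and of 0.65 to 0.76 in GE, a difference of -0.78 ± 0.11 (edgeR adjusted p = 0.0076). Gsx2 had ratios of 0.38 and 0.38 in CTX and of -1.81 to -0.96 in GE, a difference of 1.84 ± 0.26 (edgeR adjusted p = 0.0076), with 50 and 60 counts behind the cortical values. Dll1 was not called without CTX replicate 2, MGE replicate 1 or 2, CGE replicate 2 or LGE replicate 2, nor with thinned nuclei (edgeR adjusted p = 0.0518) or the top 16% (edgeR adjusted p = 0.0517).

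Called in all 10 further settings of this comparison were 10 genes, which are named after their values were seen. They were Gsx2 and Unc5d, together with Aldoc, a glial aldolase gene, at -2.18, the LIM-only gene Lmo2 at -1.20, the glutamate receptor delta gene Grid1 at -0.84, the zinc-finger homeobox gene Zfhx4 at -0.80, 5530401A14Rik at -1.70, the ventral homeobox gene Vax1 at 1.11, the non-muscle myosin gene Myh14 at 0.95 and the p53 relative Trp63 at 1.26. For Aldoc the ratios were -1.75 and -1.58 in CTX and 0.09 to 0.80 in GE, on a mean of 52.5 counts in the cortical nuclei. For Vax1 they were -0.31 and -0.65 in CTX and -1.91 to -1.27 in GE. The direction of the ratio itself was opposite in CTX and GE for Aldoc and not for Vax1, which was below 0 in every library.

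**Figure D5:**
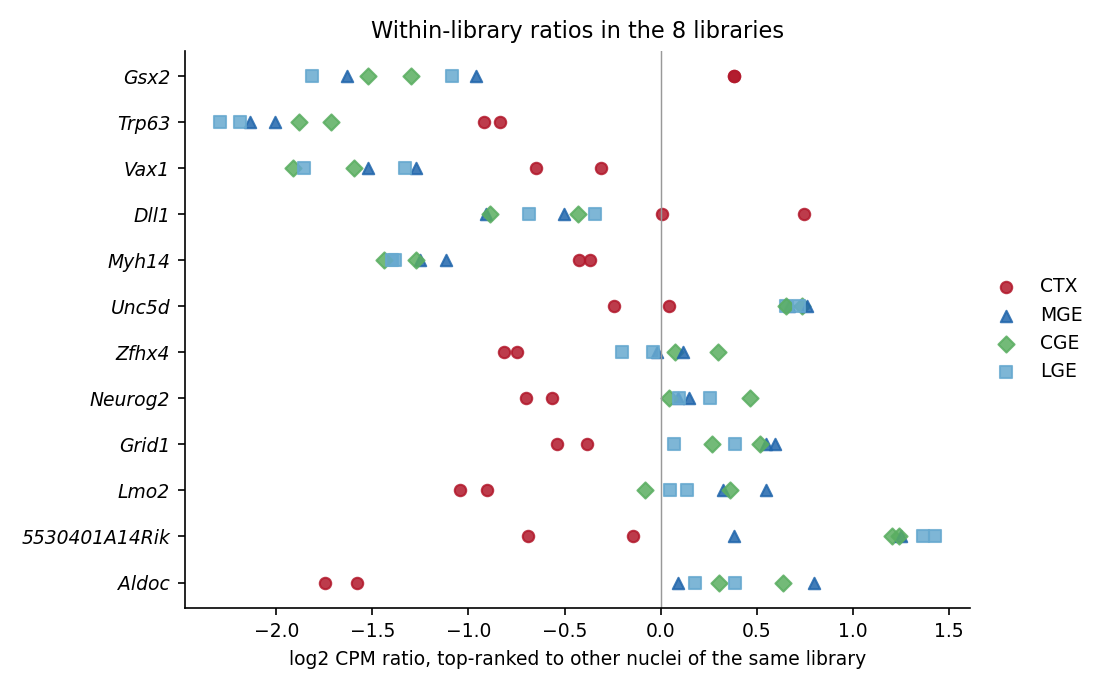
Log2 CPM ratio of top-ranked to other nuclei of the same library (x axis) in each of the 8 libraries (points, by region) for 12 called genes (y axis). CTX points lie right of all GE points for Gsx2, Trp63, Vax1, Dll1 and Myh14 and left of them for the other genes, with Neurog2 at -0.70 and -0.57 in CTX against 0.04 to 0.46 in GE.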

How the data were processed

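Per the labels, single-nucleus ATAC-seq was made from dounced tissue, and the submitters' processing notes name Cell Ranger ATAC 1.2.0 and GRCm38. The authors deposited raw counts per peak and per motif for each nuclear barcode, with peaks called separately in each library. Nuclei with 5000 or more counts were scored and the top 8% taken. Doublets were not removed, and a setting without nuclei above the 95th percentile of counts stood in for a caller. Counts over a gene were summed over peaks that overlap its body or the 2 kb upstream (GENCODE M21, 21938 protein-coding genes), and an overlapping peak counted for each gene. A peak with more called length collects more counts. Ratios used a pseudocount of 1 CPM and genes with 500 or more counts in the library. Counts were tested with edgeR 4.0.16 in R 4.3.3 (glmQLFit, glmQLFTest, TMM, filterByExpr) on sums per sample, 4 groups of 2 sharing a spread, with a call at an adjusted p of 0.05 or less, and DESeq2 1.42.0 as an alternative. The scripts were tested on simulated data. Labels do not say that the 2 samples of a region came from separate litters, so p-values measure the spread between these samples. Exact Poisson intervals (95%) hold at most the error of counting, and take counts as independent. Odd values made up only 5.17 to 10.4% of counts above 0, so most counts came in pairs. The intervals are therefore too narrow, by an amount that was not tested.

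The nuclei, gene lists and motif list were chosen with earlier results of these data known. Named genes were the 12 of the score and up to 4 of each list with the largest mean ratio. Outside the lists they were the 10 highest and 5 lowest in both libraries, and the 6 in each direction that differed most between libraries. Of the test they were the 10 largest in each direction and all called listed genes. A few listed genes were added after their values were seen (Dcx, Camk2a, Dll3, Pax6, Ptprz1 and the cortical ratios of Slc32a1). Some genes and motifs that these rules name are not reported here. Alternatives changed the share taken, the score genes, the depth, the pseudocount, the filter, the normalization, the covered length and the samples.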

Additional observations from a re-analysis of the deposited data

Results flagged for a closer look

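A difference of the within-library ratio between CTX and GE was found for 62 genes by an interaction term in edgeR. The listed genes among them were Gsx2 at 1.84, Dll1 at 1.03, Unc5d at -0.78 and Neurog2 at -0.81, as CTX minus GE on the log2 scale. Neurog2 was called in 9 of 10 further settings and lost when each nucleus was thinned to 5000 counts, while Dll1 was called in 3 of 10.

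The median ratio of the Cajal-Retzius list was 0.99 in CTX replicate 2 and -0.04 in CTX replicate 1, and that of the neurogenic and intermediate progenitor list was 0.64 and -0.21. Against the nuclei ranked below the median, 4 genes were 2-fold apart in opposite directions in CTX replicates 1 and 2. They were Ccdc80 at -1.23 and 1.55, Mmrn2 at -1.29 and 1.02, Gcnt1 at 1.03 and -1.02, and Kynu at 1.23 and -1.25. These differences between the libraries were not tested, since each age has 1 library.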

How the results depend on the processing

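Of 172 named ratios of neuron-like to other nuclei 26 changed sign in 1 or more of 9 settings, none of them among the 102 of 0.5 or more in size, and the counts of 2-fold genes depended on the settings. Against nuclei ranked below the median, the medians of the Cajal-Retzius and deep-layer lists in CTX replicate 1 turned from -0.04 each to 0.08 and 0.05, and that of the mural or mesenchymal list in CTX replicate 2 from -0.05 to 0.0002. In CTX replicate 1 the 28 higher genes became 85 with the top 4%, 18 with the top 16%, 3 with nuclei thinned to 5000 counts, 5 with 5 CPM added, 66 with no minimum and 187 against nuclei ranked below the median, and the 170 lower became 331 (top 4%), 60 (thinned), 81 (5 CPM) and 389 (below the median). In CTX replicate 2 the 298 higher became 129 (top 16%), 143 (thinned) and 485 (no minimum), and the 269 lower 539 (top 4%), 21 (top 16%), 59 (thinned), 171 (10000 or more counts) and 154 (5 CPM). The causes were not tested. Of the 774 genes called in CTX against GE, DESeq2 gave 1234, the length offset 3, start-site peaks 233 and within-library ratios 62, and leaving out a library 255 to 1566, where a lone sample is assumed to vary like the other groups. For the 62 genes of within-library ratios, settings added after seeing the data gave 117 (thinned), 138 (top 16%) and 22 to 367 without a library. For motifs DESeq2 gave 98, and leaving out a library 0 to 12. Same-numbered samples did not all deviate together, with correlations of -0.036 to 0.37 for genes and -0.39 to 0.44 for motifs (0.31 to 0.44 among GE samples), and are taken as sharing a number alone, although odd values made up 9.54 to 10.4% of counts above 0 in replicate 1 libraries and 5.17 to 5.85% in replicate 2 libraries. CTX replicates 1 and 2 thus differ in this share as well as in age, and its part in the contrasts between them was not tested. A replicate block gave 884 genes and 0 motifs. Reversed folds of CTX against GE were -0.011 for Gli3 with the offset, and 1.11 for Tac2 and 0.40 for Gigyf1 with start-site peaks. In within-library ratios they were -0.62 for Gm1113, -0.46 for Fam50b, -0.61 for Vmn1r218 (these 3 rest on few or no GE counts and show no direction), 0.63 for Metap1d, 0.026 for Dlx5, 0.79 for Dlx1, 0.60 for Dlx2, 0.33 for Sp9, 0.13 for Slc32a1, 0.21 for Nkx2-1, -0.085 for Fezf2, -0.28 for Emx2, -0.20 for Rora and -0.010 for Cdh5.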
